A study of Mus musculus with 64 samples.

Results

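The genes described here are 79 mouse chromatin remodelers and enzymes that modify histones or DNA. They were chosen by symbol: Hdac, Sirt, Kdm, Kat, Chd, Dnmt, Ezh, Setd or Arid followed by a digit, Tet1 to Tet3, and Smarc followed by a to e. They hold 128 of the 25697 probes on the Illumina bead arrays and are 79 of the 16593 genes named there, and 36 of them have more than 1 probe. A further 15 genes of the RefSeq gene table with such symbols were not analysed here. Male mice were 21 weeks old, and total RNA of the thymus, spleen, liver and brain of each of 16 animals went on 1 array per organ. The Hmgn2 cohort held 4 wild-type mice and 4 homozygous Hmgn2-/- mice, all with the strain label C57BL/6. The double knockout cohort held 4 wild-type mice and 4 homozygous Hmgn1-/-n2-/- mice, all with the strain label C57BL/6J. Hmgn1 and Hmgn2 encode small proteins that bind nucleosomes. The sources used here name no Cre driver, litter, slide or array batch, so cohort, strain label and any batch cannot be told apart.

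Chromatin enzymes set how tightly DNA is packed around histones. Acetyltransferases (Kat genes) add acetyl groups to histone lysines, and deacetylases (Hdac genes, and the NAD-dependent sirtuins) remove them. Methyltransferases such as Ezh2 and several of the SET domain genes add methyl groups to lysines, and Kdm demethylases remove them. Setd3 is an exception, as its known substrate is a histidine of actin. Dnmt enzymes methylate cytosine while Tet enzymes oxidise the methylated base. Remodelers of the Chd and SWI/SNF (Smarc and several Arid) families use ATP to move or evict nucleosomes.

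By role the genes were 4 class I and 7 class II or IV deacetylases, 6 sirtuins, 7 acetyltransferases, 14 lysine demethylases, 9 SET domain methyltransferases, 5 Dnmt or Tet genes, 6 Chd remodelers, 12 Smarc genes and 9 Arid genes. A probe was taken as detected where its deposited detection p-value was under 0.01, and a gene was tested within an organ if a probe of it was detected on at least 4 of the 16 arrays. This left 66 of the 79 in brain, 58 in liver, 67 in spleen and 67 in thymus, and 58 in all 4 organs. Arid1a, Arid3c, Chd6, Dnmt3a, Hdac9, Kdm2b, Kdm4d and Tet3 were tested in no organ. All 79 are called enzymes below for short, though some encode complex subunits, a catalytically inactive cofactor or transcription factors.

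The arrays had 9550 to 13411 detected probes each. Hmgn2 itself was low on all mutant arrays but 1. In the Hmgn2 knockout its mean log2 level was 4.58 against 10.53 in wild type in brain, 4.47 against 8.83 in liver, 4.88 against 12.21 in spleen and 5.47 against 12.88 in thymus. In the spleen of the double knockout cohort, the library labelled double knockout replicate 1 had an Hmgn2 level of 12.13, and the library labelled wild type replicate 4 had 6.33, each against its label. The spleen comparisons are therefore also given without these 2 libraries. The Hmgn1 probe stayed bright in the double knockout, at 10.41 in brain, 10.72 in liver, 12.41 in spleen and 11.73 in thymus. Where it lies relative to the deleted part is not known here, so it checks nothing. The tissue labels were checked on marker genes: all 9 hepatocyte markers were detected in wild-type liver, all 9 immature thymocyte markers on the arrays in thymus, 6 of 7 B cell markers in spleen (not Pax5) and 6 of 9 neuronal markers in brain (not Snap25, Tubb3 or Nefl). Markers of other tissue were also seen. The exocrine pancreas list had a mean log2 level of 4.62 to 13.52 on the wild-type spleen arrays (over 6 on 5 of 8), 4.64 to 13.72 in the Hmgn2 knockout and 4.78 to 8.68 in the double knockout spleen. The hepatocyte list stood at 5.15 to 7.90 on the wild-type thymus arrays, over 6 only on replicate 1 of the Hmgn2 cohort. The part of such tissue in the mutant comparisons of the spleen was not tested.

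Wild-type mice showed where each enzyme was expressed. The comparison used the 32 wild-type arrays, normalised over all 64 arrays, and each organ was set against the mean of the other organs in limma with the mouse as a random block. A gene was called at an adjusted p under 0.05 and a log2 difference of at least 1, which is a 2-fold difference. Of 70 genes tested, 31 (44.3%) had their highest mean in thymus, 19 (27.1%) in brain, 14 (20.0%) in spleen and 6 (8.57%) in liver. Over all 11068 genes tested the shares were 23.8% for thymus, 29.4% for brain, 22.2% for spleen and 24.7% for liver. In thymus 15 of the 70 were called higher, against a background of 13%, and 5 lower, against 14.8%. In brain 7 were higher (background 20%) and 12 lower (21%). In liver 3 were higher (15.4%) and 14 lower (22.7%), and in spleen 7 were higher (14.2%) and 5 lower (14.3%). The range between an enzyme's highest and lowest organ had a median of 1.26 on the log2 scale, against 1.58 over all genes, and it passed 2 for 17 of the 70 (24.3%) against 38.7% of all genes. Without the wild-type spleen library that went against its label, no call and no highest organ changed, and no spleen mean moved by more than 0.08. Fits without the arrays high in markers of other tissue were added after seeing the data. Without the 5 spleen arrays over 6 for pancreas markers, Ezh2 was no longer called higher in spleen (0.86) and Smarcd2 was (1.07), Kdm1a and Kdm1b were no longer called higher in thymus, Kdm6b was no longer called lower in brain and Kdm4b was called lower in liver. The highest organ then moved to spleen for 4 enzymes, from thymus for Sirt1, Kdm4c and Arid4b and from brain for Smarcb1. Without the thymus array over 6 for hepatocyte markers, Kdm8 was called higher in thymus and Sirt7 was no longer called in spleen. In whole organs, fewer cells of a type and less RNA per cell cannot be told apart. Intensities of different probes are on no common scale, so levels are compared for a gene across organs and not between genes.

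**Figure D1:**
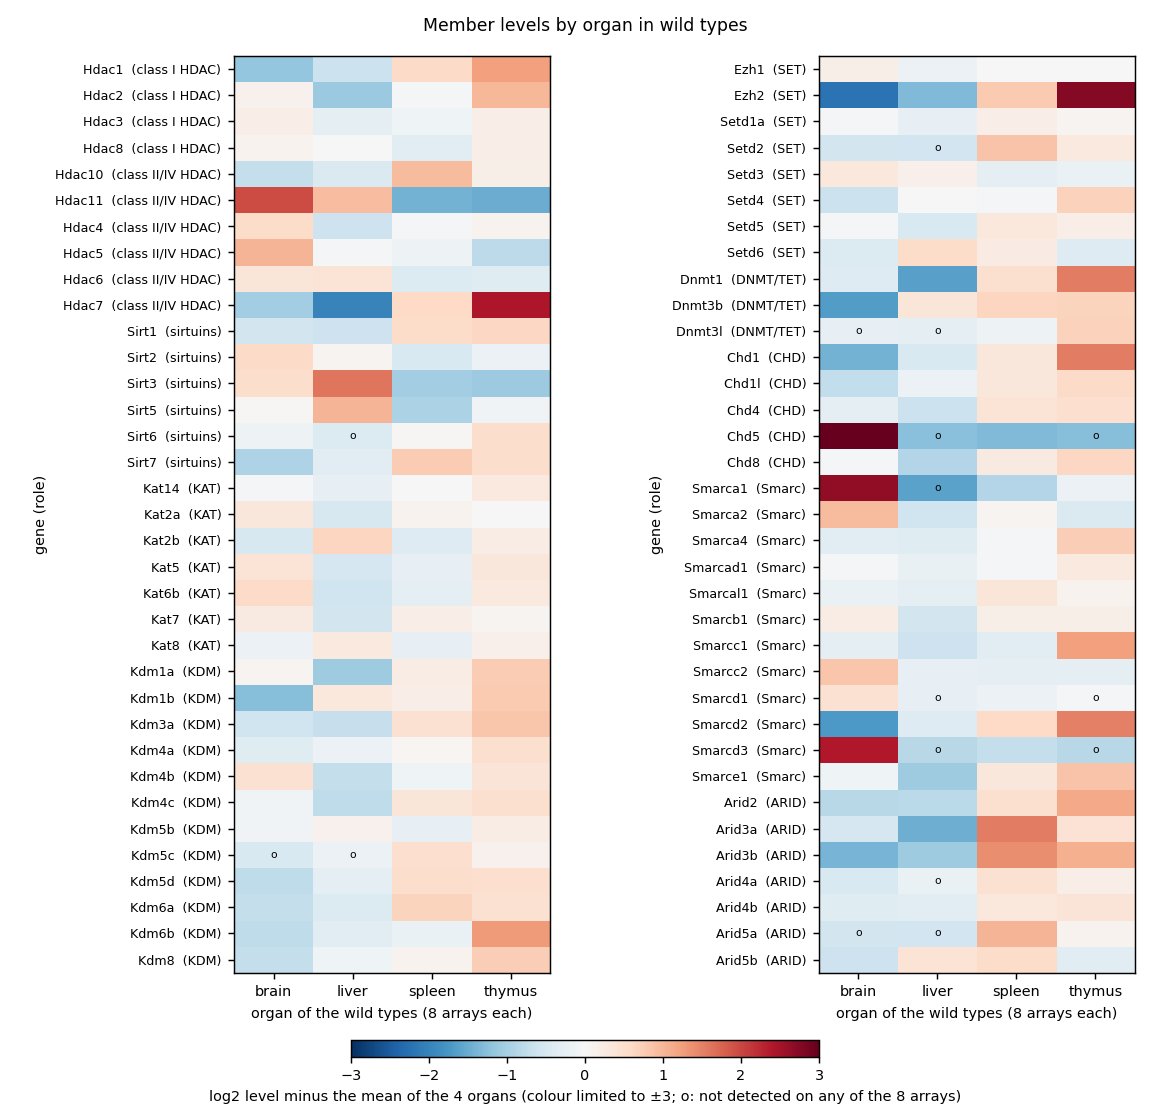
Wild-type log2 level of each of the 70 enzymes tested, minus its own mean over the 4 organs, by organ (columns, 8 arrays each) and gene (rows, grouped by role). Red is above and blue below the gene's mean, with colours limited at 3, and a circle marks an organ in which none of the 8 arrays detected the probe; Ezh2 and Hdac7 stand out in thymus, and Chd5, Smarca1, Smarcd3 and Hdac11 in brain.

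Among the genes listed as SET domain methyltransferases, Ezh2 varied most between organs. Ezh2 is the catalytic subunit of Polycomb repressive complex 2, which methylates lysine 27 of histone H3. Its lowest, median and highest log2 levels over 8 wild-type arrays were 9.84, 10.08 and 10.24 in thymus and 7.66, 8.08 and 8.76 in spleen. They were 5.43, 6.06 and 6.26 in liver and 4.86, 5.07 and 5.35 in brain. The order was thymus, spleen, liver, brain, and no array of an organ overlapped with the next. The mean in thymus was 31.4-fold that in brain, 16.8-fold that in liver and 3.89-fold that in spleen, and the log2 difference of thymus from the other organs was 3.67 ± 0.10 (SE, adjusted p = 2.94e-26, limma). Its paralog Ezh1 was near the detection limit everywhere, with organ means within 0.33 on the log2 scale and detection on 1 to 6 of the 8 arrays of an organ. The proliferation markers, of which 10 of 12 were on the arrays, were likewise highest in thymus and next in spleen, but did not separate liver from brain as Ezh2 did. Their mean log2 level per wild-type array was 8.41 to 8.59 in thymus, 6.59 to 7.86 in spleen, 4.64 to 5.14 in liver and 4.69 to 4.79 in brain. Top2a was not among the markers detected in wild-type brain of either cohort. The part of dividing cells in the Ezh2 levels was not tested. Setd2, which trimethylates lysine 36 of histone H3, was called higher in spleen (1.14 ± 0.08), and Setd1a, Setd3 and Setd5 differed between their highest and lowest organ by 0.43, 0.58 and 0.77.

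**Figure D2:**
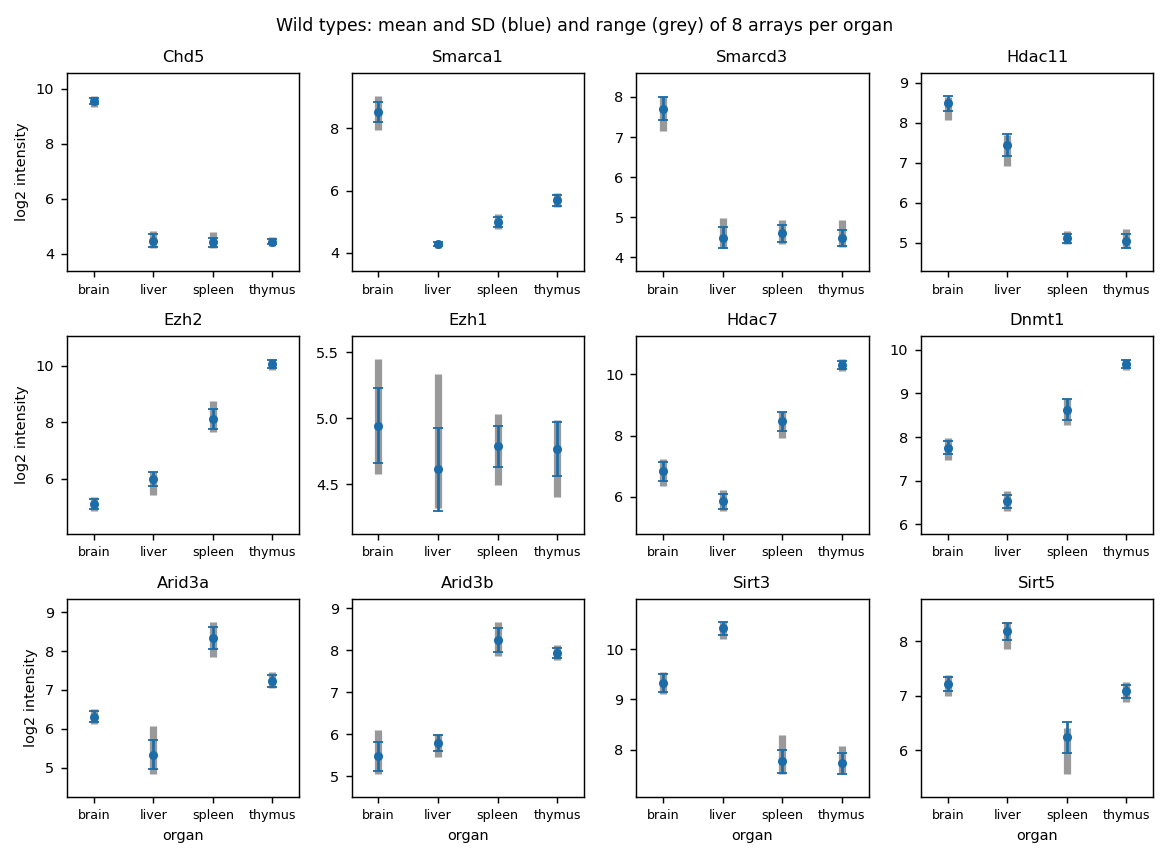
Log2 intensity of 12 enzymes in wild-type brain, liver, spleen and thymus (8 arrays each). Blue points and bars are the mean and SD and grey bars the range; each panel has its own vertical axis, and Ezh1 spans about 1 log2 unit near the detection limit while Ezh2 runs from about 5 in brain to 10 in thymus.

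Of the deacetylases, Hdac7 and Hdac1 were highest in thymus and Hdac11 and Hdac5 in brain. Hdac7, a class II enzyme known as a repressor in developing thymocytes, had its lowest, median and highest levels at 10.10, 10.28 and 10.51 in thymus and at 7.92, 8.57 and 8.78 in spleen. In brain they were 6.34, 6.87 and 7.23, and in liver 5.53, 5.85 and 6.21. The thymus arrays lay above all others, and the mean was 3.55-fold that in spleen, 11.1-fold that in brain and 21.8-fold that in liver. Hdac11, the class IV enzyme, ran the other way: its levels were 8.05, 8.53 and 8.63 in brain, 6.91, 7.56 and 7.68 in liver, and no higher than 5.28 in spleen and 5.34 in thymus. The mean in brain was 2.04-fold that in liver, 10.3-fold that in spleen and 10.9-fold that in thymus. Spleen and thymus did not separate for Hdac11. Hdac5, a class II enzyme expressed in neurons, was 2.11-fold higher in brain than in liver and 3.52-fold higher than in thymus. The class I pair Hdac1 and Hdac2, catalytic subunits of the NuRD, Sin3 and CoREST repressor complexes, were both called higher in thymus, by 1.64 ± 0.07 and 1.32 ± 0.06. Hdac1 was lowest in brain (-1.54 ± 0.07) and Hdac2 in liver (-1.47 ± 0.06). Hdac3, the deacetylase of the NCoR complex, stayed within 0.47 over the organs. Hdac10, a polyamine deacetylase, was called higher in spleen, by 1.27 ± 0.09.

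Beside Hdac11 (1.24), the genes called higher in liver were both sirtuins. Sirt3, the main deacetylase of mitochondria, had lowest, median and highest levels of 10.19, 10.46 and 10.53 in liver and 9.11, 9.38 and 9.54 in brain. In spleen they were 7.53, 7.72 and 8.30, and in thymus 7.55, 7.65 and 8.07. Liver and brain each lay above spleen and thymus, which overlapped. The mean in liver was 2.12-fold that in brain, 6.24-fold that in spleen and 6.42-fold that in thymus (log2 difference from the other organs 2.13 ± 0.08, adjusted p = 5.58e-23, limma). Sirt5, a mitochondrial desuccinylase, was 1.97-fold higher in liver than in brain and 3.87-fold higher than in spleen. Sirt7, a nucleolar sirtuin, was called higher in spleen and lower in brain. None of the 7 acetyltransferases tested was called in any organ, and their median range over the organs was 0.82, the smallest of the roles.

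Of the DNA methyltransferases, Dnmt1, which copies methylation after replication, had lowest, median and highest levels of 9.55, 9.70 and 9.79 in thymus and 8.27, 8.61 and 8.89 in spleen. In brain they were 7.48, 7.78 and 7.98, and in liver 6.31, 6.49 and 6.77. Its 4 organs did not overlap, and the mean in thymus was 2.08-fold that in spleen, 3.80-fold that in brain and 8.93-fold that in liver. Dnmt3b, a de novo methyltransferase, was called lower in brain, and the catalytically inactive cofactor Dnmt3l was detected on all 8 thymus arrays and on only 1 array outside the thymus. Dnmt3a was not tested. Among the demethylases, Kdm6b, which removes methyl groups from lysine 27 of histone H3, was highest in thymus, 2.75-fold over spleen, 2.99-fold over liver and 4.08-fold over brain. Its X-linked paralog Kdm6a was not called in any organ. Kdm1a, Kdm1b and Kdm3a were also called higher in thymus, and 8 of the 12 demethylases tested had their highest mean there.

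The remodelers held the largest brain differences. Chd5, a Chd family remodeler known from neurons, had lowest, median and highest levels of 9.34, 9.58 and 9.74 in brain. None of the 8 liver and 8 thymus arrays detected it, and 1 of 8 spleen arrays did. The brain mean was at least 17.5-fold that in liver and at least 26.6-fold that in thymus, as bounds set by the lowest signals taken as detected there. For spleen, where the mean of 4.41 was no higher than in liver or thymus, no fold is given. Smarca1, the ISWI family ATPase known as Snf2l, had levels of 7.96, 8.54 and 9.04 in brain, was not detected in liver, and was 11.5-fold higher in brain than in spleen and 7.12-fold higher than in thymus. Smarcd3, the BAF60c subunit of SWI/SNF, had levels of 7.16, 7.83 and 8.02 in brain and was not detected in liver or thymus; brain was at least 4.86-fold and 7.38-fold above them. All 8 brain arrays lay above every other array for these 3 genes. The BAF60 paralogs split by organ, since Smarcd2 (BAF60b) was highest in thymus, 9.37-fold over brain, 3.68-fold over liver and 1.86-fold over spleen. The core ATPases of SWI/SNF also differed: Smarca2 was highest in brain (1.27 ± 0.08 above the other organs) while Smarca4 was highest in thymus, below the 1 log2 unit needed for a call. The scaffold subunits split likewise, Smarcc2 called higher in brain (1.11 ± 0.08) and Smarcc1 in thymus (1.63). Chd1, a remodeler of transcribed genes, was 7.78-fold higher in thymus than in brain, where 5 of 8 arrays detected it.

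The Arid genes share a DNA-binding domain, and 5 of the 7 tested had their highest mean in spleen. Arid3a, a transcription factor known from B cells, had lowest, median and highest levels of 7.85, 8.39 and 8.76 in spleen, 2.15-fold over thymus, 4.10-fold over brain and 8.02-fold over liver, where 4 of 8 arrays detected it. Arid3b was 1.24-fold higher in spleen than in thymus, and these organs overlapped. Arid5a was detected on all spleen and thymus arrays and on none of brain or liver. The B cell markers stood at a mean log2 level of 9.60 to 10.21 per wild-type array in spleen and 5.62 to 6.02 in thymus, where Ms4a1 and Pax5 were not detected, and their part in the Arid3a levels was not tested. Where an enzyme had several detected probes, 19 of 25 had the same highest organ on each; Chd4, Ezh1, Kat2b, Kdm1b, Kdm4b and Setd4 did not. For 26 of the 70, all 8 arrays of the highest organ lay above every other array (13 in thymus, 7 in brain, 4 in spleen, 2 in liver). The share over all genes was not counted, so these numbers are a description only.

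The sequence upstream of the first-listed start was read for 69 of the 79 genes in the RefSeq promoter table (build GRCm38.p6). The 250 bases before the start were searched on both strands, with overlaps counted, for the GC box GGGCGG, the CCAAT box CCAAT and the E2F motif TTTNGCGC. A GC box lay in 41 of the 69 (59.4%) against 46.4% of 13335 genes with a probe, a CCAAT box in 29 (42%) against 36%, and the E2F motif in none against 1.59%. The median number of CpG dinucleotides was 17 against 11. Among the 7 genes called higher in brain 6 held a GC box, and among the 10 of 15 thymus genes with a sequence 7 did. Such matches describe the letters in this window only. Shown are the 2 enzymes highest in thymus against the other organs (Ezh2, chr6:47595031-47595280, minus strand, and Hdac7, chr15:97831496-97831745, minus strand), a pair of the 3 highest in brain (Chd5, chr4:152338401-152338650, plus strand, and Smarcd3, chr5:24602003-24602252, minus strand), and the gene with the largest mutant change below (Setd3, chr12:108179285-108179534, minus strand). Each is written 5′ to 3′ on the gene's strand, and capitals mark GC and CCAAT boxes on either strand.
Ezh2: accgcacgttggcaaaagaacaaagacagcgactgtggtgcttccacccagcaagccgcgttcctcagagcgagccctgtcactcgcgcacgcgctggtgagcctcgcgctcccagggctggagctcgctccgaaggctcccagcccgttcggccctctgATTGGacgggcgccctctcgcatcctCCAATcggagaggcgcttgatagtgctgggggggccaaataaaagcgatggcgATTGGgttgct
Hdac7: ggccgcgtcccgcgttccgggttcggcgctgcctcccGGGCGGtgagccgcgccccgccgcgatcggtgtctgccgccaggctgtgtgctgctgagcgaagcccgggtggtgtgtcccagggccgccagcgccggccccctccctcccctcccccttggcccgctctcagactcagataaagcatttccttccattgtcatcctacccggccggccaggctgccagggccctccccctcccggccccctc
Chd5: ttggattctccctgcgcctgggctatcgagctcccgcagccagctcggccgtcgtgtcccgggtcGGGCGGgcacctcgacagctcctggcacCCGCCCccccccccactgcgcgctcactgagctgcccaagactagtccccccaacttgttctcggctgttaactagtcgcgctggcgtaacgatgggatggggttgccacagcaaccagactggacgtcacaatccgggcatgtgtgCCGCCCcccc
Smarcd3: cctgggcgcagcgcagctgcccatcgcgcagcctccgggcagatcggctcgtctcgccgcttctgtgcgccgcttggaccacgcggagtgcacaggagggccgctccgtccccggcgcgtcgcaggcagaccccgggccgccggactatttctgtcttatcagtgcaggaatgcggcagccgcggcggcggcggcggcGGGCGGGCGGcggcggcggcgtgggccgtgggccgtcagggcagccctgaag
Setd3: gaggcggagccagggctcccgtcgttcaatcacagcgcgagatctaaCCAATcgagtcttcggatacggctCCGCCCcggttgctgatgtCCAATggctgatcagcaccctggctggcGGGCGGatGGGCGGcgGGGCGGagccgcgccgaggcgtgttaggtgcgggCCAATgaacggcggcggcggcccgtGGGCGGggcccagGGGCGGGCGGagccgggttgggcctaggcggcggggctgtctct
The Ezh2 window held 23 CpG, no GC box and 3 CCAAT boxes, the Hdac7 window 25 CpG and 1 GC box, and the Chd5 window 21 CpG and 3 GC boxes. The Smarcd3 window held 38 CpG and 2 overlapping GC boxes. The Setd3 window held the most GC boxes of these, 7, beside 31 CpG and 3 CCAAT boxes.

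Mutants were compared with the wild types of their own cohort, organ by organ, in a limma fit of all 16 arrays of the organ normalised together, with a call at an adjusted p under 0.05 over all genes tested. Replicates are separate mice, so the p-values measure the spread between mice. Outside the Hmgn2 knockout thymus no chromatin enzyme was called. In the Hmgn2 knockout the count was 0 of 66 in brain (background 0.0218%), 0 of 58 in liver (0.0131%) and 0 of 67 in spleen (0%), and in each of these organs 1 gene had an unadjusted p under 0.05, against 2.83%, 4.01% and 2.9% of all genes. In the double knockout it was 0 in brain (0.142%), liver (0.314%), spleen (0%) and thymus (0.232%), with 6, 7, 6 and 6 genes at an unadjusted p under 0.05, against 6.51%, 9.19%, 10.7% and 8.99% of all genes. No enzyme differed by 1 log2 unit in any of the 8 comparisons. The median standard error was 0.138 in brain, 0.150 in liver, 0.142 in spleen and 0.129 in thymus, so small changes were not detectable with 4 mice per group.

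**Figure D3:**
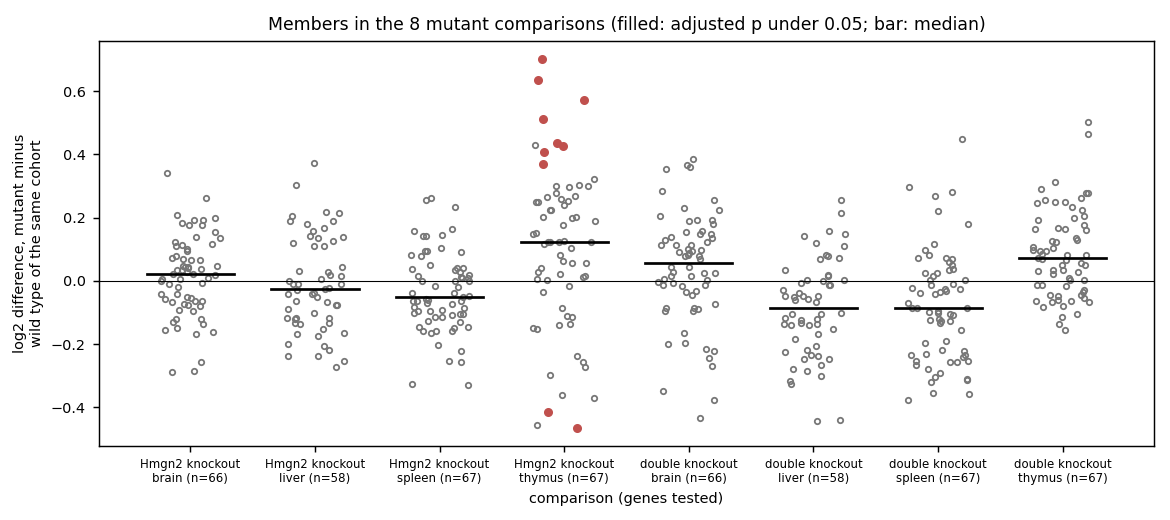
Log2 difference between mutant and wild type of the same cohort (vertical) for every enzyme tested, in 8 comparisons (horizontal). Each circle is a gene, filled red where the adjusted p was under 0.05, and bars are medians; red points appear only in the Hmgn2 knockout thymus, 8 above and 2 below 0.

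In the Hmgn2 knockout thymus, 10 of 67 enzymes were called, 14.9%, against 15.5% of all 9041 genes tested, so the share was near the background. Setd3, Arid4b, Kdm6a, Arid2, Kdm3a, Smarcad1, Smarcd2 and Kat6b rose (8, against a background of 7.22% of genes) and Sirt5 and Setd4 fell (2, against 8.32%). At an unadjusted p under 0.05 there were 23 (background 31.1%). The groups did not overlap for 10 enzymes that were higher (7.03%) and 2 that were lower (8.28%). The median log2 difference over the 67 was 0.12, against 0.02 over all genes, and 49 of 67 were above 0 (53.1% of all genes were). Under median scaling in place of quantile normalisation the median of all genes moved to -0.17 and that of the enzymes to -0.07; the calls then were 2 higher and 13 lower, against 82 higher and 2223 lower over all genes, and 26 enzymes changed sign. Setd3, Arid4b, Sirt5 and Setd4 were called under both scalings. The 11 enzymes called under median scaling alone were all lower: Smarce1, Hdac5, Chd4, Arid3a, Kdm6b, Hdac2, Smarcb1, Kat5, Arid5b, Sirt7 and Hdac7. Of the enzymes called under either scaling, 4 changed sign between them (Smarcd2, Hdac2, Hdac7 and Sirt7). Raw intensities differed between the groups: the wild-type arrays had a 95th percentile of 1072 to 1257 and the knockout arrays of 807 to 933, with no overlap, and its part in the result was not tested.

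**Figure D4:**
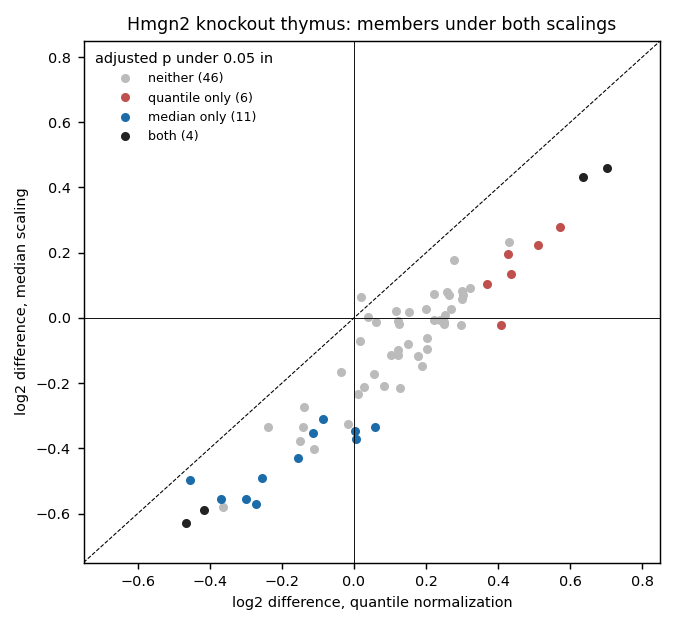
Log2 difference of the 67 enzymes in the Hmgn2 knockout thymus under quantile normalisation (horizontal) and median scaling (vertical), coloured by where the adjusted p was under 0.05. All but 1 of the points (Ezh1) lie below the dashed line of equality, and 4 enzymes (black) were called under both.

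Setd3 was the enzyme with the largest increase. It has a SET domain, and its known substrate is a histidine of actin. Its log2 levels were 7.62, 7.54, 7.65 and 7.78 in wild type and 8.56, 8.44, 8.43 and 7.96 in the knockout. All 4 knockout arrays lay above the wild types, with replicate 4 closest to them. The difference was 0.70 ± 0.12 (adjusted p = 0.00153, limma), and it was called under all 27 alternative settings. In the double knockout thymus Setd3 stood at 7.87, 7.93, 7.90 and 7.76 against 7.62, 7.79, 7.79 and 7.99 in its wild types, and these groups overlapped. The test of the difference between the mutants gave -0.64 ± 0.17 (adjusted p = 0.0675), which missed the threshold. The other SET domain gene called, Setd4, a SET domain methyltransferase, fell: 7.05, 6.82, 6.72 and 7.14 in wild type against 6.57, 6.58, 6.26 and 6.46 in the knockout. Every knockout array was below every wild type (-0.47 ± 0.14, adjusted p = 0.0293). The dimmer of its probes went the other way, by 0.36 ± 0.10 (adjusted p = 0.0253 over all probes), so the direction for Setd4 rests on the probe read. Its double knockout difference was 0.23, and the mutants differed by 0.70 ± 0.19 (adjusted p = 0.0750). Setd4 was the only enzyme on chromosome 16, which carries Hmgn1. Of the 5 tested enzymes on chromosome 4, which carries Hmgn2, none was called in any mutant comparison.

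Among the demethylases 2 of 12 rose and none fell, beside 7.22% of all genes that rose and 8.32% that fell; with so few genes per role, the counts by role are descriptions. Kdm6a, which removes methyl groups from lysine 27 of histone H3, was at 9.03, 9.10, 9.22 and 8.95 in wild type and at 9.25, 9.80, 10.04 and 9.48 in the knockout. The groups did not overlap, though the lowest knockout array was just above the highest wild type. The difference was 0.57 ± 0.16 (adjusted p = 0.0253), and another probe gave 0.28 ± 0.12 (adjusted p = 0.140). Kdm3a, which acts on lysine 9 of histone H3, was at 9.49, 9.57, 9.64 and 9.46 in wild type and at 9.88, 10.16, 9.90 and 9.96 in the knockout. These groups did not overlap (0.44 ± 0.09, adjusted p = 0.00526), and the other probes of Kdm3a gave 0.42 ± 0.12 and 0.35 ± 0.14. Under median scaling neither Kdm6a (0.28, adjusted p = 0.226) nor Kdm3a (0.13, adjusted p = 0.419) was called. Kdm1a, the flavin-dependent demethylase of lysine 4, had a difference of 0.30 with no overlap between groups but an adjusted p of 0.0516, and turned to -0.02 under median scaling. Kdm6b, which removes the same mark as Kdm6a, stood at -0.30 (adjusted p = 0.0903; -0.56 and 0.00585 under median scaling), and the sex-linked pair Kdm5c and Kdm5d at 0.04 and 0.26, not called under either scaling.

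**Figure D5:**
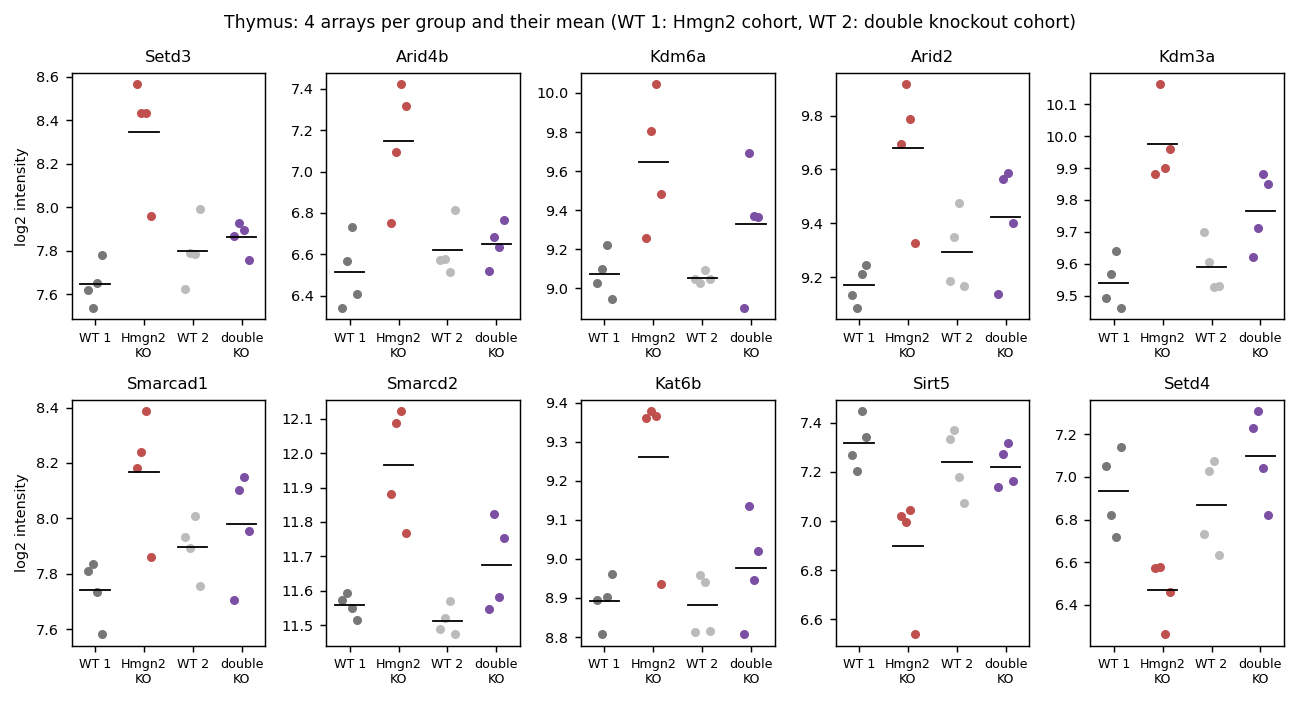
Log2 intensity in thymus of the 10 enzymes called in the Hmgn2 knockout, for the 4 arrays of each group (points) with their mean (line). Panels have their own vertical axes; Setd3 and Kdm3a are higher on all 4 Hmgn2 knockout arrays than in their wild types, while Kat6b overlaps through 1 array.

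Of 7 Arid genes 2 rose under quantile normalisation, against the same 7.22% of all genes. Arid4b, a subunit of the Sin3 deacetylase complex, was at 6.34, 6.57, 6.73 and 6.41 in wild type and at 6.75, 7.10, 7.42 and 7.32 in the knockout. The lowest knockout array was just above the highest wild type, and the difference was 0.63 ± 0.13 (adjusted p = 0.00522). Arid2, a subunit of the PBAF form of SWI/SNF, was at 9.14, 9.08, 9.21 and 9.25 against 9.69, 9.92, 9.79 and 9.33. Knockout replicate 4 was again the lowest of its group, without overlap (0.51 ± 0.13, adjusted p = 0.0137). Arid5b, a DNA-binding partner of the demethylase Phf2, stood at -0.45 with overlapping groups (adjusted p = 0.0807). Under median scaling Arid4b was still called higher (0.43, adjusted p = 0.0253) and Arid2 was not called (0.22, adjusted p = 0.269). Arid3a (-0.56, adjusted p = 0.00520) and Arid5b (-0.50, adjusted p = 0.0410) were called lower there.

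The Smarc genes gave 2 increases among 10 (7.22% of all genes rose), and neither was called under median scaling. Smarcad1, a remodeler known from heterochromatin maintenance and DNA end resection, was at 7.81, 7.83, 7.73 and 7.58 in wild type and at 8.18, 8.24, 8.39 and 7.86 in the knockout. Knockout replicate 4 was close to the wild types and the other replicates were well above them (0.43 ± 0.12, adjusted p = 0.0253). The difference was 0.20 under median scaling (adjusted p = 0.333). Smarcd2, the SWI/SNF subunit that was highest in wild-type thymus, was at 11.57, 11.59, 11.55 and 11.52 against 11.88, 12.09, 12.12 and 11.77. The groups did not overlap under quantile normalisation (0.41 ± 0.09, adjusted p = 0.00883), and under median scaling the difference turned to -0.02 (adjusted p = 0.920). The ATPases Smarca2 and Smarca4 stood at 0.19 and 0.32, with adjusted p-values of 0.181 and 0.115, and at -0.15 and 0.09 under median scaling.

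Kat6b, an acetyltransferase of histone H3, was the 1 of 7 acetyltransferases called under quantile normalisation, against 15.5% of all genes. It was at 8.89, 8.81, 8.90 and 8.96 in wild type and at 9.36, 9.38, 9.37 and 8.93 in the knockout. Replicates 1 to 3 were high and replicate 4 lay within the wild types (0.37 ± 0.11, adjusted p = 0.0276). A dim probe of the same gene, detected on 6 of 16 arrays, gave -0.35 ± 0.13 (adjusted p = 0.0814). Under median scaling Kat6b was not called (0.10, adjusted p = 0.583), and Kat5 was called lower (-0.31, adjusted p = 0.0407). Sirt5, like Sirt3, was called higher in wild-type liver. In thymus its levels were 7.27, 7.21, 7.45 and 7.34 in wild type and 7.02, 6.99, 7.04 and 6.54 in the knockout. All 4 knockout arrays were lower, replicate 4 by the most (-0.42 ± 0.12, adjusted p = 0.0213), and its other probe gave -0.14 (adjusted p = 0.621). With the replicate number as a block, Kat6b and Sirt5 missed the threshold, with adjusted p-values of 0.0709 and 0.0538.

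Under quantile normalisation no deacetylase of class I, II or IV, no Dnmt gene and no Chd remodeler was called in the Hmgn2 knockout thymus. Under median scaling 4 of these were called lower: Hdac5 (-0.49, adjusted p = 0.00294), Chd4 (-0.43, adjusted p = 0.00408), Hdac2 (-0.33, adjusted p = 0.0331) and Hdac7 (-0.35, adjusted p = 0.0465). Enzymes that marked the wild-type thymus were among those not called under quantile normalisation: Hdac7 had a difference of 0.00 (adjusted p = 0.995), Ezh2 a difference of 0.13 ± 0.16 (adjusted p = 0.616), Hdac1 of -0.02 ± 0.14, Hdac2 of 0.06 ± 0.08 and Dnmt1 of -0.11 ± 0.12. Under median scaling Ezh2 stood at -0.21 (adjusted p = 0.258), Hdac1 at -0.32 (adjusted p = 0.0616) and Dnmt1 at -0.40 (adjusted p = 0.0532), so the direction of Ezh2, Hdac2 and Hdac7 depended on the scaling. For Ezh2 the levels were 9.97, 10.23, 10.32 and 10.04 in wild type and 9.97, 9.95, 10.48 and 10.67 in the knockout, which overlapped. Of 23 enzymes with several detected probes in thymus, the probes had the same sign in 14.

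Marker lists were read beside the thymus result, and of those given here only that of immature thymocytes separated the groups. The immature thymocyte list had a mean log2 level of 9.73 to 9.89 in wild type and of 10.07 to 10.12 in the knockout, with no overlap. Of its 9 genes 4 were called higher, against 7.22% of all genes. The lists are given only under quantile normalisation. The mature T cell list was at 8.99 to 9.14 against 8.97 to 9.15 and the proliferation list at 8.47 to 8.59 against 8.50 to 8.71, both overlapping. The macrophage and neutrophil list was at 5.98 to 6.02 in wild type and 5.42 to 6.01 in the knockout. In the double knockout thymus, where no enzyme was called, the immature thymocyte list was also higher without overlap (9.97 to 10.13 against 9.75 to 9.95), and so was the proliferation list (8.53 to 8.68 against 8.41 to 8.48). The part of these cells in the enzyme differences was not tested. The calls depended on knockout replicate 4, over all genes as well as here. Without it 22 enzymes were called, 15 higher and 7 lower, and all 10 above were among them. Over all 9041 genes 2301 were called without it in place of 1405, 1250 higher and 1051 lower. Without wild-type replicate 1, the array high in hepatocyte markers, 8 enzymes were called, 7 of them among the 10 (1118 of all genes). Without knockout replicate 3, or without wild-type replicate 4, 6 were called (775 and 872 of all genes). With only the 8 arrays of the comparison, 1 was called (Setd3), and 272 of all genes.

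The double knockout thymus gave smaller values for the same genes. The log2 differences were 0.07 for Setd3, 0.03 for Arid4b, 0.28 for Kdm6a, 0.13 for Arid2, 0.17 for Kdm3a, 0.08 for Smarcad1, 0.16 for Smarcd2, 0.10 for Kat6b and -0.02 for Sirt5, none called. The difference between the mutants was called for 0 of 67 enzymes in thymus (background 1.74%), with 7 at an unadjusted p under 0.05 (17%). So a call in the Hmgn2 knockout beside none in the double knockout does not show that the mutants differed. The enzyme with the smallest p in the double knockout thymus was Smarca1, at 5.91, 5.66, 6.10 and 5.72 in wild type and 5.97, 6.41, 6.62 and 6.41 in the mutant, with overlap (0.50 ± 0.16, adjusted p = 0.301). Hdac6, a tubulin deacetylase, followed at 0.26 (adjusted p = 0.515).

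In the other organs no enzyme passed the test, and those with the smallest p-values were as follows. In the Hmgn2 knockout brain it was Chd4, the ATPase of NuRD, at 8.13, 7.82, 8.10 and 8.16 in wild type and 7.63, 7.90, 7.62 and 7.91 in the knockout, which overlapped through wild-type replicate 2 (-0.29 ± 0.11, adjusted p = 0.998). Chd4 also had the smallest p in the spleen (-0.26 ± 0.11). In liver it was Kdm6b (-0.26), with overlapping groups. In the double knockout, Smarcc2 led in brain with 8.24, 8.43, 8.54 and 8.51 against 8.77, 8.92, 8.75 and 8.82, groups that did not overlap (0.39 ± 0.14, adjusted p = 0.593). Kat7, the acetyltransferase of the HBO1 complex, had the next to smallest p in liver, with -0.32 (adjusted p = 0.415), with 6.06, 6.19, 5.92 and 5.96 against 5.71, 5.75, 5.76 and 5.65.

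Arid3a had the smallest p in both liver and spleen of the double knockout over all arrays, in opposite directions. In spleen it was at 8.86, 8.67, 8.39 and 8.20 on the arrays labelled wild type and at 8.98, 9.02, 8.99 and 8.93 on those labelled double knockout (0.45 ± 0.14, adjusted p = 0.380). The last of the first group and the first of the second are the libraries whose Hmgn2 level went against the label. Without them the groups of 3 did not overlap either, the difference was 0.34 ± 0.15 (adjusted p = 0.445), and 6 enzymes had a smaller p than Arid3a, led by Arid2 (-0.54 ± 0.20, adjusted p = 0.417). In liver it was at 4.50, 4.70, 5.33 and 4.81 in wild type, detected on 2 of 4 arrays, and at 4.38, 4.40, 4.27 and 4.53 in the mutant, detected on none, so the liver value was not well above background. In the fit of all 64 arrays an F test over the 4 organs found that the double knockout change of Arid3a differed between organs (adjusted p = 0.00858), the only call among 58 enzymes, against a background of 0.597%; none was called in the Hmgn2 knockout (0%). The changes in that fit were 0.14 in brain, -0.82 in liver, 0.46 in spleen and -0.06 in thymus; within the liver arrays normalised alone the liver change was smaller, -0.44 ± 0.15 (adjusted p = 0.373). The adjusted p was 0.0295 without the 2 spleen libraries, 0.112 without spleen and 0.416 without liver, so the call was lost without either organ.

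Leaving out the 2 spleen libraries called no enzyme in any spleen comparison. Over all 9237 genes the shares called were then 0.0108% in the Hmgn2 knockout and 0.0758% in the double knockout. They were 0.184% between the wild types and 0% for the difference between the mutants. The double knockout differences of the enzymes moved by a median of 0.06 and at most by 0.17. At an unadjusted p under 0.05 there were then 9 enzymes in the double knockout in place of 6 (11% of all genes), 0 in the Hmgn2 knockout in place of 1 (2.58%), 9 between the wild types in place of 10 (19.1%) and 5 for the difference between the mutants, as before (7.52%). The mean change over the 4 organs was tested for the 58 enzymes measured in all. None was called in the Hmgn2 knockout (background 0.0153% higher and 0.0612% lower) or the double knockout (0.291% and 0.199%). The smallest p was that of Smarcad1 in the Hmgn2 knockout, with a mean of 0.25 ± 0.08 (adjusted p = 0.204) from 0.28 in brain, 0.11 in liver, 0.16 in spleen and 0.43 in thymus. Smarca2 (0.16) and Kdm3a (0.21) also had differences above 0 in all 4 organs of the Hmgn2 knockout, as did Kdm1a, Hdac11, Chd1 and Hdac10. Hdac1 and Kat5 were below 0 in all 4. The share of all genes with the same sign in every organ was not counted. Chd1l, a remodeler recruited by poly(ADP-ribose), had a mean of -0.23 in the double knockout (adjusted p = 0.586).

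The wild types of both cohorts differed in 1 enzyme. In brain, Chd4 was at 8.13, 7.82, 8.10 and 8.16 in the Hmgn2 cohort and at 8.62, 8.42, 8.48 and 8.48 in the double knockout cohort, without overlap (double knockout cohort higher by 0.45 ± 0.11, adjusted p = 0.0421, 1 of 66 against a background of 1.54%, and 13 at an unadjusted p under 0.05 against 17.2%). A dimmer Chd4 probe gave -0.38 ± 0.15, the opposite direction. No enzyme was called there without wild-type replicate 4 of the Hmgn2 cohort, or without wild-type replicate 1, 2 or 3 of the double knockout cohort. The same held without double knockout replicate 1, 2 or 4, and 5 were called without Hmgn2 knockout replicate 1. Counts over all genes in these fits are not given here. In liver 0 of 58 (1.35%), in spleen 0 of 67 (0.0325%) and in thymus 0 of 67 (0.254%) were called, with 5, 10 and 4 at an unadjusted p under 0.05 (15.7%, 18.6% and 7.18% of all genes). The difference between the mutants was called for none in brain (0.0109%), liver (0.0262%) or spleen (0%), with 5, 3 and 5 at an unadjusted p under 0.05 (4.78%, 6.54% and 8.11%). Its smallest p-values outside the thymus were those of Smarcc2 in brain (0.64, adjusted p = 0.989), Kdm5b in liver (-0.59) and Arid3a in spleen (0.70, adjusted p = 0.611).

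Of 178 other chromatin genes listed by complex, some were too dim to test in thymus; of those tested there, 10 were higher and 5 lower in the Hmgn2 knockout, 12.6% against 15.5% of all genes. The counts below are of genes tested, and over all genes 7.22% rose and 8.32% fell in that comparison. These genes are given only under quantile normalisation. Under median scaling the calls over all genes in the Hmgn2 knockout thymus were 82 higher and 2223 lower. Of 19 Polycomb subunits 3 rose (Suz12, Mtf2 and Pcgf3) and 2 fell (Ring1 and Cbx8). Suz12, a partner of Ezh2 in Polycomb repressive complex 2, rose by 0.56 ± 0.11 (adjusted p = 0.00256) and Ring1, a ubiquitin ligase of complex 1, fell (-0.61 ± 0.10, adjusted p = 0.00148), beside the 0.13 of Ezh2. Of 15 NuRD, Sin3 and CoREST partners Tbl1xr1 rose and Sap30 fell. Of 22 other acetyltransferase genes Ep400, Kansl2 and Kansl3 rose and Msl3 fell, and of 9 SWI/SNF partners none was called. Of 23 other histone methyltransferase genes Kmt5b rose, of 7 readers and cofactors of DNA methylation Uhrf2 rose, and of 15 genes of INO80, SRCAP and other remodelers Shprh rose and Yeats4 fell. None of 9 other histone demethylases was called, and in the other 7 mutant comparisons none of the tested genes on these lists was.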

How the data were processed

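Per the labels' protocols, RNA was extracted with Trizol, cleaned on RNeasy columns, amplified to biotinylated cRNA and hybridised to Illumina arrays. The main source was the table of deposited raw intensity values, with a detection p-value per probe and array, per the file headers; the submitters' processing notes name GenomeStudio 2011.1, and bead averaging, scan batches and probe sequences are not recorded there. A deposited normalized intensity table (linear, background subtracted, medians per array 20.3 to 20.5) served as an alternative; how the authors scaled it is not given. Each array's name in the tables matched 1 sample.

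Background was corrected by normexp from the detection p-values (offset 16), followed by quantile normalisation within an organ and log2, in limma 3.58.1 with R 4.3.3. Genes came from the platform annotation, updated through RefSeq: 23978 probes had 1 gene symbol, 0 several and 1719 none. The brightest probe on average stood for a gene. Tests used lmFit and eBayes with 4 group means per organ, Benjamini-Hochberg adjustment over all genes tested and 0.05 as the threshold. Across organs, all 64 arrays were normalised together, with the mouse as a random block (correlation -0.0119 for the wild types by organ and 0.0330 for the mean over organs). Named genes are those called, up to 10 in each direction, the smallest p-values where none was called, up to 6 members above and 2 below for each organ, and fixed paralog pairs; others named for their role, probe or place were chosen after their values were seen. The enzymes, the pathway and marker lists and the tests were chosen with earlier results of these data known. The test within an organ was run on simulated log2 values with known changes in the Hmgn2 knockout. Background correction, scaling, the comparison of organs and the tests over organs were not simulated.

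Replicate numbers are shared between groups in the labels. They were checked for pairing by the correlation of deviations from the group means, which ran from -0.619 to 0.648 over the 8 mutant comparisons; no comparison had every pair over 0.1, so no block was used. No pair of arrays was identical. The number of mice, 4 per group, limits the precision.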

Additional observations from a re-analysis of the deposited data

Results flagged for a closer look

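In 60 groups of 4 arrays, 3 held an array farther from the other 3 than Dixon's 95% limit allows (0.829), which chance gives in about 1 of 20 groups. In the brain of the Hmgn2 cohort, wild-type replicate 2 had a Chd4 level of 7.82 against 8.10 to 8.16 in the others. In the Hmgn2 knockout thymus, replicate 4 had a Kat6b level of 8.93 against 9.36 to 9.38, and a Sirt5 level of 6.54 against 6.99 to 7.04. This replicate was also the lowest of its group for Setd3, Arid2, Smarcad1 and Smarcd2, and without it 22 enzymes were called in place of 10. Over all 9041 genes, 2301 were then called in place of 1405.

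The double knockout change of Arid3a differed between organs by an F test over the 4 changes in limma (adjusted p = 0.00858). In spleen all 4 arrays labelled double knockout were higher than those labelled wild type, but 1 array of each group went against its label by its Hmgn2 level. In the liver Arid3a was not well above background on the mutant arrays. The adjusted p was 0.0295 without these 2 spleen libraries, 0.112 without spleen and 0.416 without liver.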

How the results depend on the processing

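The counts of 0 enzymes called in the Hmgn2 knockout brain, liver and spleen, in the double knockout liver, spleen and thymus, and for the mean over organs held under every alternative run; in the double knockout brain, 3 were called with array weights. In the Hmgn2 knockout thymus, 10 to 11 were called with an offset of 50, cyclic loess, the deposited normalized table, no filter, a stricter filter, array weights or a robust prior. Over all genes these settings called 1288 to 1574. With only the 8 arrays of the comparison, 1 enzyme was called there (272 of all genes). Median scaling gave 15 (2 higher and 13 lower, against 82 and 2223 over all genes). With an array left out 6 to 22 were called, against 775 to 2301 of all genes. Smarcd2 turned to -0.0205 under median scaling, the only reversal among the 10 enzymes called; 26 of the 67 changed sign. With the replicate number as a block, 8 enzymes were called in place of 10 (820 genes in place of 1405), and 0 in every other mutant comparison. For the difference between the mutants in thymus, 0 became 1 with an offset of 50 or a robust prior and 3 with array weights. It became 2 with median scaling, where 559 of 9041 genes were called in place of 157. With an array left out it was 0 to 5 (5 without Hmgn2 knockout replicate 4). For the brain wild types between cohorts, 1 became 2 with an offset of 50, cyclic loess or every probe, and 7 with array weights. It became 12 with median scaling, where 1447 of 9157 genes were called in place of 141. It was 0 with the deposited table or only the 8 arrays, and 0 to 5 with an array left out. In liver it became 3 with array weights and 0 to 1 with an array left out. For the organs, the liver count of 17 became 30 with median scaling. With no size threshold the counts were 59 in brain, 64 in liver, 59 in spleen and 62 in thymus, against 19, 17, 12 and 20. With a mouse left out they were 17 to 21, 16 to 17, 10 to 12 and 19 to 22. In fits chosen after seeing the data, without 5 spleen arrays high in pancreas markers the counts were 18, 18, 12 and 18, and without 1 thymus array high in hepatocyte markers 19, 17, 11 and 21. Where no count over all genes stands beside them, these counts describe the enzymes only. Other than the size threshold, the array left out and fewer arrays, the cause was not tested. Enzymes near the detection limit, such as Ezh1, Arid4a and Kdm5c, have differences that signal over background limits.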
